A study of Homo sapiens with 6 samples.

Results

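The 9 genes STAT2, STAT3, IRF1, IRF2, IRF3, IRF7, IRF9, JAK1 and TYK2 encode kinases and transcription factors of interferon signalling. They were chosen by gene name, and all 9 were listed in the files and passed the filter on low counts, among 56638 genes listed and 23074 genes tested. RNA-seq was performed on 6 libraries of human colorectal cancer cells, 3 transfected with a nonspecific control siRNA and 3 with an siRNA against the long noncoding RNA lncRNA-AF339830, also named GLCC1. The comparison asks how the transcriptome differs after knockdown of this RNA. The labels name the cell line as SW480, a line from a colorectal adenocarcinoma, whereas the methods of the study name DLD-1, another colorectal cancer line, for this experiment.

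No library carried a genetic change, all 6 were transfected, and the labels do not settle whether 1 siRNA sequence or several were used against lncRNA-AF339830, so an effect of the knockdown and an effect of the siRNA on other RNAs cannot be told apart. Groups follow the sample titles. The library names attached to the same samples put each library in the other group, and under them every direction given here turns. The files have no row for GLCC1, so the knockdown itself was not measured, and FARP1, under which RefSeq lists GLCC1 as a synonym, was at 110.5 ± 2.15 CPM (counts per 1000000 counts on genes) in the control siRNA libraries and 64.7 ± 1.33 in the lncRNA-AF339830 siRNA libraries (SD, n = 3 each). Nothing states that replicates came from separate cultures, so p-values measure the spread between these libraries, which may be technical. Counts assigned to genes ranged from 11948790 to 19042516 per library, and lncRNA-AF339830 siRNA replicate 2 was the shallowest.

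In type I and type III interferon signalling, the receptor-bound kinases JAK1 and TYK2 phosphorylate STAT proteins, among them STAT2, which joins IRF9 in the complex ISGF3 that binds the interferon-stimulated response element (ISRE) of target genes. Dimers of STAT3 and of other STATs bind the gamma-activated site (GAS), IRF1 activates and IRF2 represses promoters with related elements, and IRF3 and IRF7 are activated downstream of nucleic acid sensors and switch on the interferon genes. Epithelial cells of the colon carry the receptors of type I, II and III interferons. STAT2, IRF1, IRF7 and IRF9 are themselves known as interferon-inducible genes, whereas IRF3 and the kinases are known as constitutively expressed.

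The promoters were read first, because the elements in them are what these factors bind. RefSeq (GRCh38.p14) gave promoter sequences for 6 of the 9 genes, all but IRF2, IRF3 and IRF7. The sequences ran from 250 bases before to 50 bases after the annotated start, and each matched hg19 exactly once. They were searched on both strands for TTCNNNGAA, the GAS letters, and GAAA, any 2 bases and GAAA, the ISRE letters, and the letters found are shown in capitals. For IRF1, IRF9 and STAT2 the last 50 bases lie in the opening exon of the canonical transcript and the rest upstream of the gene. Positions are in hg19. IRF1 (chr5:131826416-131826715, minus strand) held 1 GAS match, 124 to 116 bases before the start. IRF9 (chr14:24630224-24630523, plus strand) held 1 GAS match, 63 to 55 bases before the start. STAT2 (chr12:56753842-56754141, minus strand) held neither. IFI44L (chr1:79085883-79086182, plus strand), the ISGF3 target with the largest fold change in these libraries, is shown for contrast with its 2 ISRE matches.
IRF1: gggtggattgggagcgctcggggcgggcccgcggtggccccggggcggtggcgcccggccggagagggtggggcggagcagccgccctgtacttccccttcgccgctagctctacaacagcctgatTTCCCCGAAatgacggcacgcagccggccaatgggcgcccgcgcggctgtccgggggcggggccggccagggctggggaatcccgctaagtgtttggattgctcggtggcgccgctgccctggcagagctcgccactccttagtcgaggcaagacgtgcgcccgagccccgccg
IRF9: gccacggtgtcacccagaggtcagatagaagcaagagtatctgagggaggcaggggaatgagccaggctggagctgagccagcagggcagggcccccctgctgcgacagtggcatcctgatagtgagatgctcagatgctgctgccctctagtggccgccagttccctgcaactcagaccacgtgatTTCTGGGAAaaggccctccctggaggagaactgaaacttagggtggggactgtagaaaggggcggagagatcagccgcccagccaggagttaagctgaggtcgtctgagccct
STAT2: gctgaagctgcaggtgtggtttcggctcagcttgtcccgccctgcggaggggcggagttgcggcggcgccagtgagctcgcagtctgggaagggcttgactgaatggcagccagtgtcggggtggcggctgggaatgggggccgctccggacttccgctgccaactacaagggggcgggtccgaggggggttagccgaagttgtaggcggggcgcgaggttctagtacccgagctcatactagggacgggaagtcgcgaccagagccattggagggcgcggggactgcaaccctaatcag
IFI44L: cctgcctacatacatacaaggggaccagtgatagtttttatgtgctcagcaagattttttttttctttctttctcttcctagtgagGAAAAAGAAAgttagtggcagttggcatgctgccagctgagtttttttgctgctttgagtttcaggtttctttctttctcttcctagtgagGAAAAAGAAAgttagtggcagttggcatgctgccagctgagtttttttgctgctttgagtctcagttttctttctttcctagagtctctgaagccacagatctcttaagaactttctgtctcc

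The GAS letters were present in 2 of the 6 genes with an entry, in 7 of 22 listed ISGF3 targets and in 6 of the IRF1 targets with an entry, 12 genes, so they are not particular to the 9 genes. They were present in 7.66% of all 35116 promoters of that length, a share of promoters rather than of genes, which can have several. The ISRE letters were present in 0 of these 6 genes and in 3.57% of all promoters. A count of 0 is close to that share and is no result about the 6 genes. IRF2, IRF3 and IRF7 could not be searched. Among listed targets with an entry, 16 of 22 for ISGF3 and 9 of 12 for IRF1 carried the ISRE letters. STAT3, TYK2 and the 3 JAK1 promoters held neither motif. A match describes letters and not binding, which was not measured here.

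Of the 9 genes, 3 were higher in the lncRNA-AF339830 siRNA libraries (STAT2, IRF1 and IRF7), 1 was lower (IRF2) and 5 did not pass the test (STAT3, IRF3, IRF9, JAK1 and TYK2). The test was edgeR's quasi-likelihood test on raw counts with Benjamini-Hochberg adjustment over all genes tested. By the same test 31.6% of all genes passed, 14.9% higher and 16.8% lower, and of the 10378 genes that averaged 10 CPM or more, as all 9 did, 5180 passed. The share of the 9 that passed, 44.4%, was therefore close to that of genes with similar counts and is no result about the group. Groups did not overlap for 4 of the 9 genes and for 46.3% of all genes. The median log2 fold change was 0.02 over the 9 genes and 0.03 over all genes. Left out, lncRNA-AF339830 siRNA replicate 2 gave 4 genes higher (IRF9 added) and 1 lower, and 9922 calls over all genes in place of 7293.

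**Figure D1:**
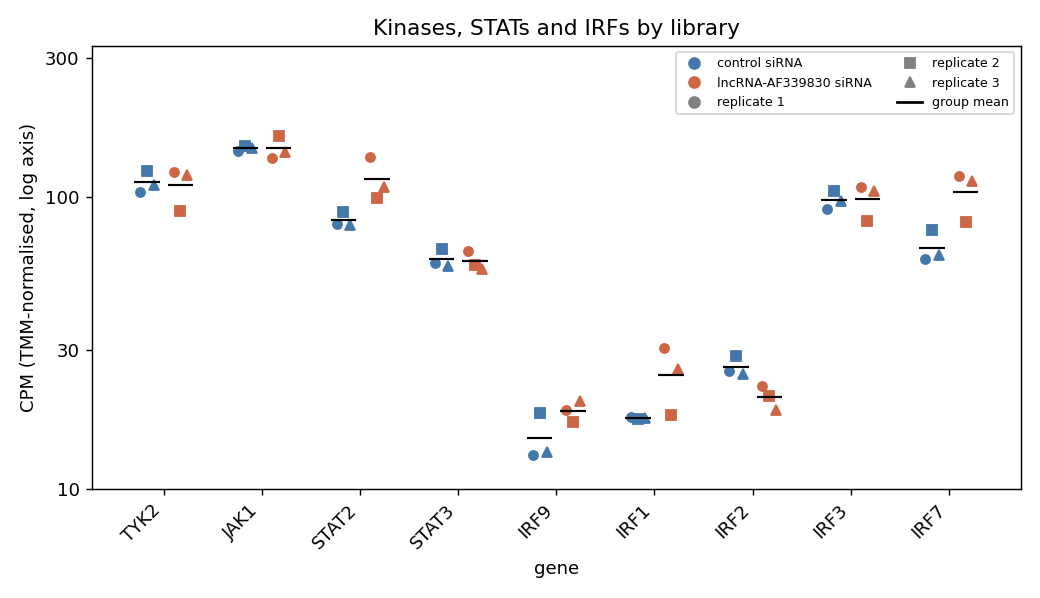
Level of each gene in each library, in CPM on a log axis; colours mark the 2 groups, symbols the replicate number and lines the group means. The 3 lncRNA-AF339830 siRNA libraries sit above all control siRNA libraries for STAT2, IRF1 and IRF7 and below them for IRF2, and the groups overlap for the other 5 genes.

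JAK1 (chr1:65298912-65432232, minus strand, 25 exons), the kinase shared by the receptors of all 3 interferon types, was at 143, 149.9 and 147 CPM (scaled by TMM) in control siRNA replicates 1 to 3. It was at 136, 162 and 143 CPM in lncRNA-AF339830 siRNA replicates 1 to 3. The control libraries lay inside the range of the others. The log2 fold change of 0.00093 (SE 0.09, 95% interval -0.17 to 0.17) had an adjusted p of 0.996 by edgeR's quasi-likelihood test.

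TYK2 (chr19:10461209-10491248, minus strand, 25 exons), the partner kinase on the type I and type III receptors, was at 104, 123 and 109.9 CPM in the control siRNA libraries and 122, 89.5 and 119 CPM in the lncRNA-AF339830 siRNA libraries. The lowest value of all 6 was in lncRNA-AF339830 siRNA replicate 2, and the groups overlapped. Its log2 fold change was -0.03 (SE 0.12, 95% interval -0.25 to 0.20, edgeR adjusted p = 0.88). Replicate 2 moved this value most, to 0.10 when left out (edgeR adjusted p = 0.16).

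STAT2 (chr12:56735381-56753891, minus strand, 24 exons), the STAT found in ISGF3, was at 81.0, 89.2 and 80.2 CPM in the control siRNA libraries. In the lncRNA-AF339830 siRNA libraries it was at 138, 99.7 and 108 CPM. All 3 lay above every control library, with replicate 1 the highest and replicate 2 the nearest to the controls. The means were 83.5 ± 5.02 and 115 ± 19.8 CPM (SD, n = 3 each), a 1.38-fold difference and a log2 fold change of 0.47 (SE 0.11, edgeR adjusted p = 0.0062). Leaving out any single library kept the log2 value between 0.32 and 0.56 and the edgeR adjusted p at 0.042 or lower.

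STAT3 (chr17:40465342-40540460, minus strand, 24 exons), the STAT activated mainly by cytokines of the IL-6 family, was at 59.6, 66.3 and 58.2 CPM against 65.5, 58.4 and 56.9 CPM. The groups overlapped almost fully. Its log2 fold change was -0.03 (SE 0.09, 95% interval -0.21 to 0.16, edgeR adjusted p = 0.86).

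IRF9 (chr14:24630474-24635774, plus strand, 9 exons), the DNA-binding subunit that completes ISGF3, was at 13.1, 18.2 and 13.4 CPM in the control siRNA libraries and 18.7, 16.9 and 20.0 CPM in the lncRNA-AF339830 siRNA libraries. Replicate 2 was the highest control library and the lowest of the other group, and these 2 libraries made the groups overlap. The log2 fold change was 0.31 (SE 0.14, edgeR adjusted p = 0.10). It passed the test without control siRNA replicate 2 (0.49, edgeR adjusted p = 0.023) and without lncRNA-AF339830 siRNA replicate 2 (0.37, edgeR adjusted p = 0.0057).

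IRF1 (chr5:131817301-131826465, minus strand, 10 exons), an activator of MHC class I and guanylate-binding protein genes, was at 17.7, 17.4 and 17.5 CPM in the control siRNA libraries. It was at 30.3, 18.0 and 25.7 CPM in the lncRNA-AF339830 siRNA libraries. The control libraries were nearly equal, while replicate 2 of the other group was barely above them and the remaining pair well above. The means were 17.5 ± 0.141 and 24.7 ± 6.22 CPM, with a log2 fold change of 0.50 (SE 0.15, edgeR adjusted p = 0.023). The call was lost when any library other than lncRNA-AF339830 siRNA replicate 2 was left out (log2 values from 0.33 to 0.51, edgeR adjusted p from 0.058 to 0.12). Without that library the log2 value was 0.68 (edgeR adjusted p = 5.4e-09).

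IRF2 (chr4:185308883-185395704, minus strand, 9 exons), which competes with IRF1 for the same elements, was at 25.4, 28.6 and 24.8 CPM in the control siRNA libraries and 22.5, 20.8 and 18.7 CPM in the lncRNA-AF339830 siRNA libraries. All 3 of the latter lay below every control. The means were 26.3 ± 2.04 and 20.7 ± 1.90 CPM, with a log2 fold change of -0.35 (SE 0.11, edgeR adjusted p = 0.027). The call did not hold without control siRNA replicate 1 (edgeR adjusted p = 0.064), 2 (0.14) or 3 (0.059) or without lncRNA-AF339830 siRNA replicate 3 (0.11), with log2 values from -0.39 to -0.27. It was also lost when counts were scaled by library totals alone (-0.22, edgeR adjusted p = 0.14), a scaling that moved the median of all genes from 0.03 to 0.15.

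IRF3 (chr19:50162829-50169114, minus strand, 8 exons), held in the cytoplasm until it is phosphorylated, was at 90.8, 105 and 96.9 CPM in the control siRNA libraries and 108, 82.6 and 105 CPM in the lncRNA-AF339830 siRNA libraries. The groups overlapped, with the lowest value in lncRNA-AF339830 siRNA replicate 2. The log2 fold change was 0.02 (SE 0.11, 95% interval -0.19 to 0.23, edgeR adjusted p = 0.92).

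IRF7 (chr11:612555-615950, minus strand, 11 exons), the interferon-inducible counterpart of IRF3, had the largest change of the 9 genes. It was at 61.2, 77.2 and 63.2 CPM in the control siRNA libraries and 118, 82.0 and 113 CPM in the lncRNA-AF339830 siRNA libraries. All 3 of the latter lay above every control, although replicate 2 was close to control siRNA replicate 2. The means were 67.2 ± 8.74 and 104 ± 19.5 CPM, a 1.55-fold difference and a log2 fold change of 0.64 (SE 0.13, edgeR adjusted p = 0.0023). Leaving out any single library kept the log2 value between 0.55 and 0.78 and the edgeR adjusted p at 0.020 or lower.

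Within the lncRNA-AF339830 siRNA group, replicate 2 was the lowest library for 6 of the 9 genes (66.7%) and for 45.1% of all genes tested. It was also the library with the largest share of reads outside annotated genes, 12.7% against 9.82% to 11.2% in the other 5 libraries. The part of depth and of this share in the values of replicate 2 was not tested.

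**Figure D2:**
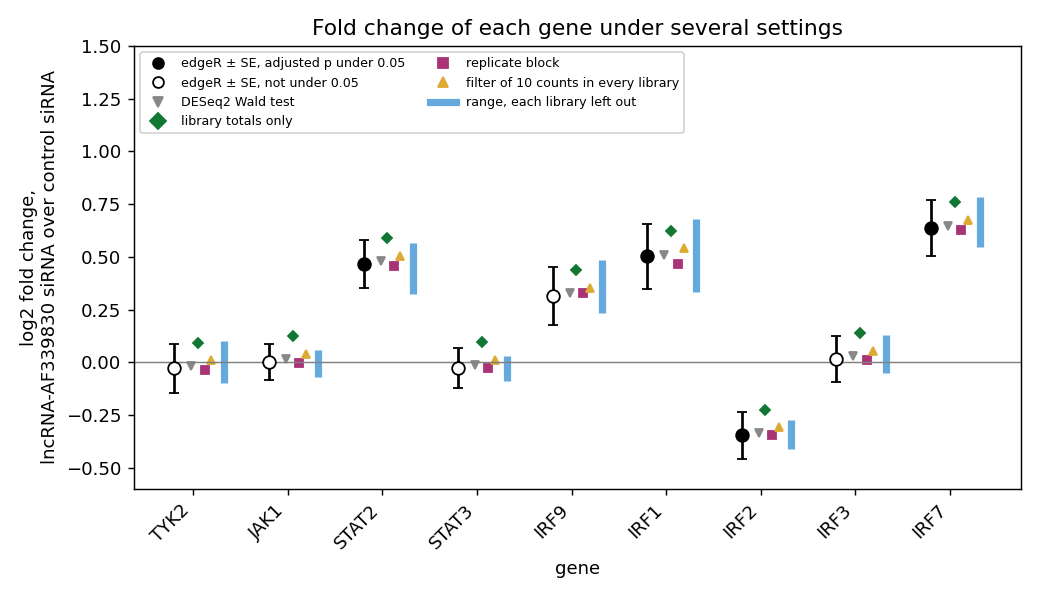
Log2 fold change of each gene, lncRNA-AF339830 siRNA over control siRNA, with the standard error from edgeR, beside other settings and the range with each library left out. STAT2, IRF1 and IRF7 stay above 0 and IRF2 stays below 0 in every setting shown, while values for JAK1, TYK2, STAT3 and IRF3 lie on both sides of 0.

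Levels were then set side by side per kilobase of the canonical transcript (GENCODE 44 mapped to hg19), since raw counts grow with length. IRF3 had the highest level of the 9 genes in the control siRNA libraries, at 61.2 ± 4.47 CPM per kb. IRF7 followed at 35.0 ± 4.55, JAK1 at 28.8 ± 0.632, TYK2 at 26.5 ± 2.29 and STAT2 at 18.9 ± 1.14 CPM per kb. The lowest levels were those of STAT3, IRF2, IRF9 and IRF1, from 12.5 down to 4.94 CPM per kb.

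In this order JAK1 and TYK2, STAT3 and IRF2, and IRF2 and IRF9 overlapped between libraries, and the other neighbours did not. In the lncRNA-AF339830 siRNA libraries IRF3 stood at 61.8 ± 8.72 and IRF7 at 54.3 ± 10.2 CPM per kb, with overlapping libraries. STAT2, at 26.2 ± 4.50 CPM per kb, overlapped both JAK1 and TYK2 there. IRF9 stood above IRF2 in these libraries without overlap (11.4 ± 0.934 against 9.15 ± 0.841 CPM per kb), and IRF1 had the lowest mean at 6.94 ± 1.75 CPM per kb, overlapping IRF2.

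Ratios between genes of the same library do not depend on how libraries are scaled. The raw-count ratio of IRF7 to IRF3 was 0.673, 0.735 and 0.653 in the control siRNA libraries and 1.09, 0.992 and 1.08 in the lncRNA-AF339830 siRNA libraries. The groups did not overlap, and the mean log2 ratio differed by 0.62, a 1.53-fold change. The ratio of IRF1 to IRF2 was 0.697, 0.609 and 0.706 against 1.35, 0.863 and 1.38, also without overlap, a 1.75-fold change. The ratio of STAT2 to STAT3 was 1.36, 1.35 and 1.38 against 2.10, 1.71 and 1.91, a 1.40-fold change.

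Each of these 3 ratios gave p = 0.1 in a two-sided exact permutation test over libraries, the smallest p that 3 libraries against 3 allow, and p = 0.167 after adjustment over the 5 ratios tested. The ratio of TYK2 to JAK1 had overlapping groups, with log2 means of -0.39 and -0.43 (exact permutation p = 1). The ratio of IRF9 to STAT2 overlapped as well, with log2 means of -2.50 and -2.63 (exact permutation p = 0.6).

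**Figure D3:**
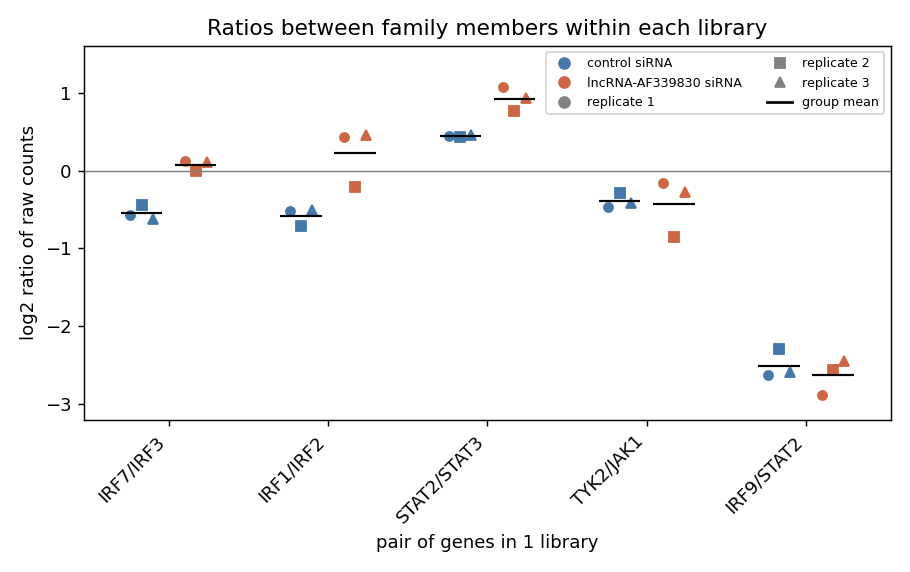
Log2 ratio of raw counts of 5 pairs of genes within each library; colours mark the groups, symbols the replicate number and lines the group means. The groups are separate for IRF7/IRF3, IRF1/IRF2 and STAT2/STAT3 and overlap for TYK2/JAK1 and IRF9/STAT2.

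The other JAK, STAT and IRF genes compared moved in both directions. Of 9 such genes, 8 could be tested, of which 2 rose, 1 fell and 5 did not pass, and their median log2 fold change was 0.02. The share that passed was close to the 31.6% of all genes and is no result about these genes. The call of a riser was lost without control siRNA replicate 1 and without control siRNA replicate 2, which left 1 riser each. Without lncRNA-AF339830 siRNA replicate 1 or 2, 2 genes fell.

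STAT6, the STAT of IL-4 signalling, rose from 120.1 ± 2.01 to 179 ± 18.6 CPM (log2 fold change 0.58, edgeR adjusted p = 0.00027). STAT5B, activated by growth hormone and other cytokines, rose by 0.31 on the log2 scale (edgeR adjusted p = 0.0098). IRF5, which acts downstream of Toll-like receptors, fell by 0.64 on the log2 scale (edgeR adjusted p = 0.0011). The values that did not pass were -0.25 for IRF8 (edgeR adjusted p = 0.055), 0.29 for JAK2, -0.28 for JAK3, 0.84 for STAT4 and -0.39 for STAT5A, all as log2 fold changes.

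Upstream of the 9 genes, the listed interferon ligands were near the limit of detection. The list held no IFNA gene. None of the 5 ligand genes tested reached a mean of 1 CPM over the libraries. Of these 5 genes 2 rose, while 14.9% of all genes rose. IFNE rose from 0.207 to 1.14 CPM and IFNL1 from 0.0886 to 0.541 CPM in group means (edgeR adjusted p = 0.00056 and 0.041), and both are named after their values were seen. IFNL1 had 3, 0 and 1 counts in the control siRNA libraries and 21, 1 and 8 in the lncRNA-AF339830 siRNA libraries, so its groups overlapped. The 2 calls became 1 with DESeq2 and without control siRNA replicate 2 or 3 or lncRNA-AF339830 siRNA replicate 1 or 3, and 0 when every library had to hold 10 counts. The highest IFNB1 count in any library was 2 and the lowest 0.

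Of the 6 receptor genes, 0 rose and 2 fell. That share was close to the 31.6% of all genes and under the 49.9% of genes that averaged 10 CPM or more. It is no result about receptors. With library totals or without lncRNA-AF339830 siRNA replicate 2, 1 rose. IL10RB, a chain of the type III receptor and of the IL-10 receptor, had a log2 fold change of -0.84 (SE 0.11, edgeR adjusted p = 7.7e-05). IFNLR1, the other type III chain, had one of -0.45 (SE 0.11, edgeR adjusted p = 0.0054). The remaining receptor chains ranged from 0.03 (IFNGR2) to 0.16 (IFNGR1) on the log2 scale and did not pass.

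Among 16 listed sensors, adaptors and kinases on the routes to IRF3 and IRF7, 9 rose, 2 fell and 5 did not pass. Over all genes 31.6% passed, and 49.9% of those that averaged 10 CPM or more. The median log2 fold change of the 16 was 0.36, beside 0.03 over all genes. The largest were the cytoplasmic RNA sensors DHX58 (2.67), DDX58 (1.87) and IFIH1 (1.55) and the endosomal sensor TLR3 (1.19). DHX58 had only 6, 11 and 15 counts in the control siRNA libraries. DDX58 went from 57.7 ± 2.35 to 211 ± 22.4 CPM (edgeR adjusted p = 2.9e-08). The adaptors MAVS and TICAM1 fell (log2 fold changes -0.47 and -0.51, edgeR adjusted p = 0.0022 and 0.031), and the count of fallers was 1 with library totals and without control siRNA replicate 2 or 3. TBK1, the kinase that phosphorylates IRF3, had a log2 fold change of -0.04 (edgeR adjusted p = 0.77). These are RNA levels, and whether the routes to IRF3 and IRF7 were active was not tested.

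Of 16 negative regulators of the pathway, 3 rose, 3 fell and 10 did not pass (median log2 fold change -0.02). The share that passed was close to the 31.6% of all genes and under the 49.9% of genes that averaged 10 CPM or more. The count of risers was 1 without control siRNA replicate 2 or 3, and 5 without lncRNA-AF339830 siRNA replicate 2 or with library totals. USP18, which binds IFNAR2 and limits JAK1, rose from 25.7 ± 1.83 to 85.6 ± 17.1 CPM (log2 fold change 1.74, edgeR adjusted p = 6.3e-07). The suppressor CISH and the phosphatase PTPN11 rose by 0.44 and 0.32 on the log2 scale. SOCS2 fell by 0.82, the phosphatase PTPN6 fell by 0.51 and PTPN1 fell by 0.34 on the log2 scale. SOCS1 and SOCS3, the main SOCS inhibitors of JAK1 and STAT3, had log2 fold changes of 0.20 and -0.16 and did not pass.

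Downstream, all 25 listed targets of ISGF3, the complex that holds STAT2 and IRF9, were tested and rose, against 14.9% of all genes. The list was chosen with earlier results of these data known, so the count describes this list and is no independent evidence. The median log2 fold change of the 25 was 2.33. Their summed level was 1448 to 1741 CPM in the control siRNA libraries and 5756, 4231 and 4472 CPM in lncRNA-AF339830 siRNA replicates 1 to 3. The antiviral genes IFI44L (6.68), XAF1 (4.90), IFI44 (4.26) and RSAD2 (3.80) had the largest log2 fold changes. In control siRNA replicates 1 to 3, IFI44L had only 0, 6 and 6 counts and XAF1 only 4, 20 and 6. IFI44 went from 3.06 ± 0.975 to 59.2 ± 14.0 CPM (SE 0.21 on the log2 scale, edgeR adjusted p = 2.7e-08). The smallest was that of IFI27, at 0.81. The log2 fold changes of STAT2 (0.47) and IRF9 (0.31) were thus smaller than that of each of these 25 genes.

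Of 18 tested targets of IRF1, 11 rose and 1 fell (median log2 fold change 1.21), while 14.9% of all genes rose and 16.8% fell. This list too was chosen with earlier results of these data known, so its counts are no independent evidence. The risers were 5 when every library had to hold 10 counts, which tests fewer genes. CXCL10 (2.99) and CXCL11 (2.83), chemokines for T cells, GBP2 (1.54), a guanylate-binding protein, and PSMB8 (1.51), an immunoproteasome subunit, were the largest among those at a mean of at least 1 CPM. PSMB8 was the most abundant of these 4, at 24.0 ± 0.548 and 68.4 ± 16.5 CPM, and the others stayed under 5 CPM in every library. WARS, a tRNA synthetase induced by interferon gamma, fell by 0.49 on the log2 scale (edgeR adjusted p = 0.00066). TAP1, ICAM1 and CD274, which IRF1 also activates, had log2 fold changes of 0.02, -0.06 and -0.02 and did not pass. Several genes of this list also respond to ISGF3, so it does not mark IRF1 alone.

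Around STAT3, 11 ligands, receptors and kinases that feed it were tested, of which 2 rose and 5 fell (median log2 fold change -0.06). Over all genes 31.6% passed, and 49.9% of those that averaged 10 CPM or more. The risers were 1 with the replicate block and without replicate 1 or 3 of either group, and the fallers were 3 with DESeq2, with library totals and without control siRNA replicate 2 or 3. IL11 fell by 1.47, the receptor chain IL10RA fell by 1.19 and EGFR fell by 0.64 on the log2 scale, while the IL-6 receptor IL6R rose by 0.83. The kinase SRC rose by 0.29, and the receptor chains IL11RA and IL22RA1 fell by 0.48 and by 0.30 on the log2 scale. The shared receptor chain IL6ST was at 145 and 147 CPM in group means.

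Of 14 tested targets of STAT3, 2 rose and 4 fell (median log2 fold change -0.14). The share that passed lay between the 31.6% of all genes and the 49.9% of genes that averaged 10 CPM or more. The risers were 1 with the replicate block and without control siRNA replicate 1 or 2 or lncRNA-AF339830 siRNA replicate 1. BIRC5, a survivin gene linked to mitosis, rose by 0.56, and HIF1A rose by 0.29 on the log2 scale. JUNB had a log2 fold change of -0.86, the kinase gene PIM1 of -0.65, the survival gene MCL1 of -0.48 and MYC of -0.48, all 4 past the test. SOCS3, the feedback target of STAT3, was at 5.39 ± 0.267 and 4.73 ± 1.36 CPM and did not pass. Many of these genes answer to other factors as well, and the part of STAT3 in them was not tested.

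Some reads of these genes could belong to a neighbour, because the library kit does not mark strand. Reads tallied as ambiguous between genes, 7.30% to 7.79% of each deposited total, were left out, so an overlap can also lower a count. The strand setting of the counting is not given in the sources used here. IRF1 shares 3233 exonic bases with the span of the antisense gene IRF1-AS1 (C5orf56 in the files), which rose from 1.94 ± 0.367 to 5.09 ± 1.33 CPM (log2 fold change 1.41, edgeR adjusted p = 0.00038). The part of its reads in the counts of IRF1 was not tested. All 3554 exonic bases of IRF1 also lie in the span of a protein-coding gene on the other strand, ENSG00000283782, and 444 exonic bases of IRF9 in that of the antisense RNA ENSG00000289757, neither with a row of its own here. IRF3 shares 227 exonic bases with the span of BCL2L12 on the other strand, whose log2 fold change was -0.51 (edgeR adjusted p = 0.040). JAK1 shares 4 bases with the span of RAVER2, whose log2 fold change was 0.52 (edgeR adjusted p = 0.00090). Of the 1626 exonic bases of IRF9, 1513 lie in the span of a longer gene on the same strand that has no row of its own here.

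The genes whose pattern over the 6 libraries was most like that of each of the 9 were named by the root mean square distance of centred log2 CPM, among 10377 genes. For STAT2 they were TAPBP (0.0554), which loads peptides onto MHC class I, PARP12 (0.0696) and ABCC6 (0.0723). For IRF7 they were BAHD1, PLEKHA4 and SEMA7A (0.0556 to 0.0629), and for IRF1 they were BCL7B, PPFIA3 and PAFAH1B3 (0.0582 to 0.0713). For IRF2 they were MKS1, PDPK1 and RBMS2 (0.0326 to 0.0573), and for IRF9 they were ECM1, YPEL1 and IER2 (0.0648 to 0.0797). The genes nearest to the other 4 were ZNRF2, CNOT2 and PPM1B for JAK1, ACTB and KLC2 for TYK2, TBP, EZH1 and CCND1 for STAT3, and SIPA1, TEKT4P2 and SSH3 for IRF3. These are descriptions of 6 points each.

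Markers of leukocytes and endothelial cells were low, and those of fibroblasts summed higher through COL1A1 and PDGFRB. Of 9 leukocyte markers the summed level was 3.63 to 5.00 CPM in the control siRNA libraries and 4.06 to 6.93 CPM in the lncRNA-AF339830 siRNA libraries, and PTPRC was at 0 throughout. Summed endothelial markers were at most 1.45 CPM, with PECAM1, CDH5 and KDR at 0. The 7 fibroblast markers summed to 16.1 to 20.0 CPM in the control siRNA libraries and 10.7 to 13.3 CPM in the lncRNA-AF339830 siRNA libraries. COL1A2, DCN and LUM were at 0, COL1A1 fell from 13.4 to 7.37 CPM in group means (log2 fold change -0.86, edgeR adjusted p = 0.00029) and PDGFRB was at 4.56 and 4.82 CPM. The 9 epithelial markers summed to 5550 to 6071 CPM in the control siRNA libraries and 2210 to 2614 CPM in the lncRNA-AF339830 siRNA libraries. Of these markers 6 fell, KRT8, KRT18 and KRT19 the most, while 16.8% of all genes fell. The part of the markers in the values of the 9 genes was not tested. The labels name the same cultured cell line for every library, so these are levels within a line and no shares of cell types.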

How the data were processed

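RNA-seq libraries were made from total RNA with the Illumina TruSeq RNA kit, which does not mark strand. The authors deposited raw counts per gene for each of the 6 libraries, and the submitters' processing notes name TopHat2 2.0.11, HTSeq and hg19. The strand setting is not given in the sources used here. Rows that name no gene held 30.0% to 30.9% of each deposited total and were left out.

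Genes with at least 5 counts summed over either group were tested with edgeR 4.0.16 (TMM, robust glmQLFit, glmQLFTest), and p-values were adjusted by Benjamini-Hochberg over 23074 genes. The SE of a log2 fold change is its size divided by the square root of F. Ratios of raw counts were compared with exact permutation tests. Alternatives were DESeq2 1.42.0 (the tool of the study), other scalings and filters, a replicate block, each library left out and the groups by library name. The procedure was tested on simulated counts. Transcripts came from GENCODE 44 mapped to hg19 and promoters from RefSeq.

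The genes and lists were chosen with earlier results of these data known. Named were all 9 genes, the other family genes, and in each list up to 4 genes with the largest absolute log2 fold change among those with no overlap between groups, an adjusted p under 0.05 and 1 CPM or more on average, the 3 genes nearest in pattern to each of the 9, and annotated overlaps. Others in counts of at most 5, with TBK1, IL6ST, IFNB1, SOCS1, SOCS3, TAP1, ICAM1, CD274, IFI27 and the receptor chains, were named after their values were seen. Some genes are not reported here and were left out of the counts and medians of the lists.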

Additional observations from a re-analysis of the deposited data

How the results depend on the processing

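Of the log2 fold changes, STAT2 and IRF7 kept their direction and their call under every alternative that keeps the title groups, with DESeq2 included. IRF2 lost its call with library totals (-0.22) and with the replicate block (-0.35), and IRF9 gained one with library totals (0.44). The count of lowered genes was 0 under library totals, under the replicate block and at an adjusted p under 0.01. STAT3 and TYK2, close to 0, changed sign with library totals (0.10 and 0.094) and with a filter of 10 counts in every library (0.013 and 0.010), and JAK1 when genes with a single count were kept (-0.00056) and with the replicate block (-0.0017). With each library left out, the log2 values ranged from -0.086 to 0.032 for STAT3, 0.33 to 0.68 for IRF1, -0.41 to -0.27 for IRF2, -0.048 to 0.13 for IRF3, 0.23 to 0.49 for IRF9, -0.069 to 0.060 for JAK1 and -0.10 to 0.10 for TYK2, the lowered count from 0 to 1, the log2 ratio difference of TYK2 to JAK1 from -0.17 to 0.18 and that of IRF9 to STAT2 from -0.22 to 0.0027. With the groups as in the library names, 1 gene was raised and 3 lowered, and the log2 values were -0.47 for STAT2, 0.026 for STAT3, -0.50 for IRF1, 0.35 for IRF2, -0.016 for IRF3, -0.64 for IRF7, -0.31 for IRF9, -0.00093 for JAK1 and 0.028 for TYK2. Same-numbered libraries did not deviate together (r = -0.16, -0.29 and -0.0081 over 14875 genes). With 3 libraries per group, each centred on its group mean, these values cannot decide whether the numbers pair the libraries. The replicate block gave 6531 calls in place of 7293. Calls over all genes ranged from 5221 to 9922 with each library left out. For all of these the cause was not tested.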
